A study of Caenorhabditis elegans with 4 samples.

Results

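The wide MDL-1::GFP peaks are the 260 binding regions above 1000 bp among the 9533 regions of 1 deposited list, or 2.73% of all peaks. They were selected on measured width, taken as the last base minus the first base plus 1, and the other 9273 regions are called narrower peaks. The list comes from chromatin immunoprecipitation and sequencing (ChIP-seq) of the nematode Caenorhabditis elegans, with 2 ChIP libraries made with a goat anti-GFP serum and 2 input DNA libraries. Each library was made from fed L1 hermaphrodites of strain OP106 grown at 20 °C, L1 being the first larval stage. The animals carry the unc-119 (ed3) mutation and the integrated transgene wgIs106, which holds mdl-1 with TY1, EGFP and FLAG tags beside a rescuing unc-119(+) copy. The transgene was brought in by particle bombardment, so the tagged protein comes from added mdl-1 copies. ChIP and input share all of this and differ in the immunoprecipitation, and the protocol text speaks of lysed embryos although the stage label is L1. No tissue was separated, so the peaks are those of whole larvae.

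MDL-1 is the worm relative of the vertebrate Mad proteins, basic helix-loop-helix leucine zipper factors of the Myc, Max and Mad network. It binds DNA as a dimer with the Max-like protein MXL-1, at E-box sequences, and Mad proteins of vertebrates are known as repressors of transcription. In worms mdl-1 is known as a target of the insulin pathway factor DAF-16. A peak of a factor that binds a short sequence usually spans little more than the sheared DNA fragments around its site. A wide peak is 1 region as the peak caller reported it.

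Peak strength below is -log10 of the q-value that the authors deposited for each peak, so 10 stands for a q-value of 1e-10. Positions are in WormBase WS180, and no peak was assigned to a gene. Width and strength come from the same enrichment, so the strengths of the wide peaks are a description. The list holds no value per library, so no value has a replicate error and no p-value was computed. Intervals are 95% exact binomial or Poisson intervals, or 95% Newcombe intervals for differences of shares. They cover counting error only and treat neighbouring peaks as independent.

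The typical wide peak was only moderately above the threshold. Widths ran from 1002 to 5005 bp, with a median of 1320 bp and with the middle 50% of them between 1115.5 and 1744 bp. Of the 260 wide peaks, 164 (63.1%) were at most 1500 bp wide and 50 (19.2%) were above 1500 and up to 2000 bp. A further 33 were above 2000 and up to 3000 bp, and 13 were above 3000 bp. Together the wide peaks covered 406200 bases, which is 12.5% of all bases under peaks.

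At the threshold the widths ran on without a break. The 5 narrowest wide peaks measured 1002, 1002, 1003, 1003 and 1007 bp. Their strengths were 21.6, 10.4, 21.2, 13.2 and 119, with 3 of them on X and 2 on V. The 5 widest peaks outside the rule measured 1000, 995, 994, 994 and 993 bp, with strengths of 4.35, 49.1, 58.2, 57 and 40.9. The peaks on either side of 1000 bp therefore overlapped in strength, and 224 peaks were above 800 and up to 1000 bp wide.

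Wide peaks were mostly, though not always, strong. Their median strength was 45.6, with quartiles of 23.3 and 87.7, against a median of 4.93 for the narrower peaks. Of the 100 strongest peaks 69 were wide, and of the 50 strongest 43 were. Strength also grew with width inside the class: the median was 31.9 up to 1500 bp, 66.1 from there to 2000 bp, 90.3 from there to 3000 bp and 128.8 above 3000 bp. Spearman's rho between width and strength was 0.44 across the 260 wide peaks, against 0.75 across the 9273 narrower peaks. These peaks share libraries and chromosomes, and the range of width within the wide class is cut at its lower end.

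**Figure D1:**
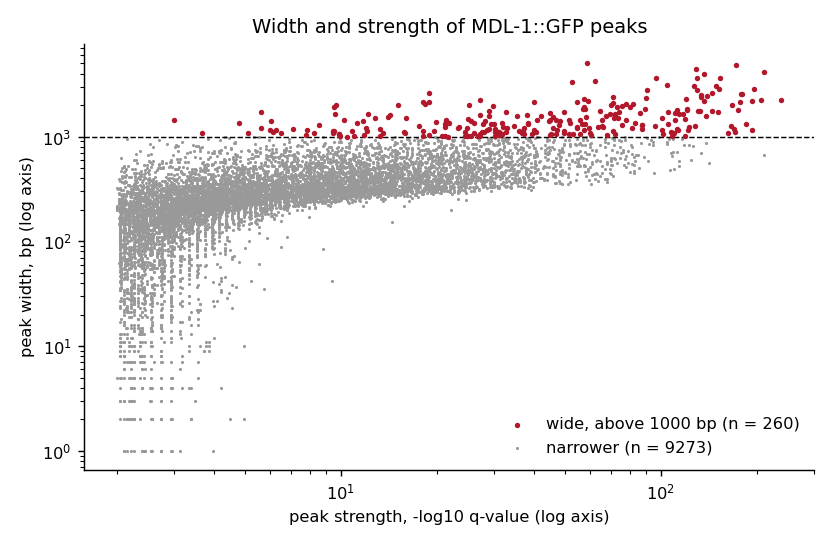
Width in bp against strength (-log10 q-value, both on log axes) of each peak, with the 260 wide peaks in red, the 9273 narrower peaks in grey and the 1000 bp threshold dashed. Wide peaks sit mostly at strengths above 10, and a thin row of them reaches down to 3.01.

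Exceptions stood on both sides of this relation. Of the wide peaks 25 had a strength below 10, 13 of them on X and 12 on autosomes, and 3 lay below the median of the whole list, 5.10. The weakest, on X from 10395559 to 10396986, was 1428 bp wide with a strength of 3.01 and had no narrower peak within 10 kb. The next weakest lay on V from 18711506 to 18712587 (strength 3.68), on X from 5479359 to 5480696 (4.80), on IV from 13030526 to 13031609 (5.14) and on V from 5284025 to 5285749 (5.64). Of the 81 peaks with a strength above 100, 60 were wide and 21 were narrower. The strongest narrower peak, on III from 4649204 to 4649865, reached 210.6 over 662 bp and had its nearest neighbour at 325 bp.

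Wide peaks lay on every chromosome and made up a larger share of the peaks on X than on any autosome. On X, 53 of 1078 peaks were wide (4.92%, interval 3.70 to 6.38). On the autosomes together 207 of 8455 were (2.45%, interval 2.13 to 2.80). The difference was 2.47 percentage points (interval 1.28 to 3.96). Chromosome V had 56 of 1846 (3.03%), III had 45 of 1704 (2.64%), IV had 41 of 1620 (2.53%), I had 33 of 1527 (2.16%) and II had 32 of 1758 (1.82%). The intervals of the 5 autosomes overlapped one another, and that of X overlapped only that of V. X thus held 20.4% of the wide peaks and 11.1% of the narrower ones. Of the peaks above 800 and up to 1000 bp 51 of 224 (22.8%) lay on X, and no difference of the wide peaks from that class was detectable (-2.38 percentage points, interval -9.79 to 4.91).

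By length of chromosome the order was different, and X did not stand apart. The density of wide peaks was 3.27 per Mb of span on III, 3.02 on X, 2.68 on V, 2.35 on IV, 2.19 on I and 2.10 on II, where the span is the stretch between the outermost peaks of the chromosome. The lowest interval, on II, was 1.43 to 2.96 and the highest, on III, was 2.39 to 4.38, so neighbours in this order do not differ beyond counting error. The high share on X thus came with a density of wide peaks inside the range of the autosomes.

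**Figure D2:**
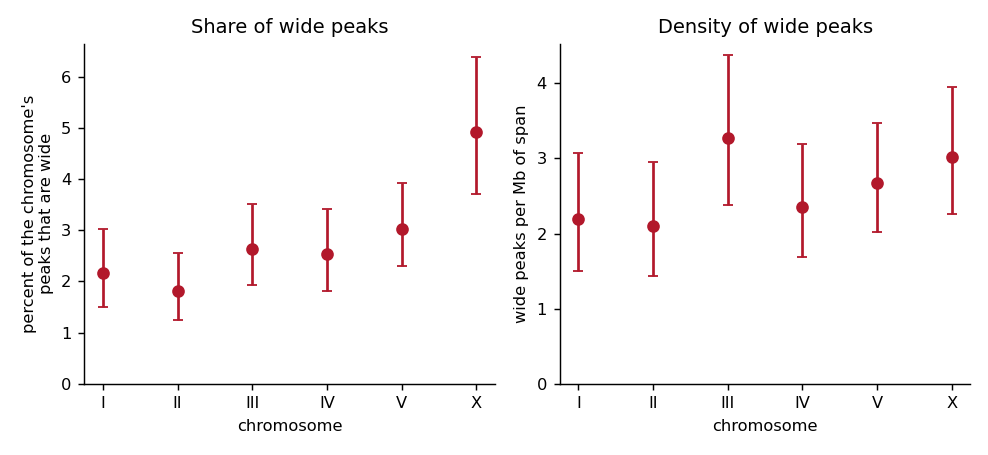
Left, percent of each chromosome's peaks that are wide; right, wide peaks per Mb of span. Points are values from the 1 list and bars are 95% exact intervals for counting error; X is highest on the left at 4.92% and second on the right at 3.02 per Mb, below III at 3.27.

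The wide peaks of X were weaker than those of the autosomes. Their median strength was 23.3, against 51.9 on autosomes, where the medians of single chromosomes ran from 37.3 on I to 74.9 on II. Of the 53 on X 5 were above 2000 bp and 0 above 3000 bp, close to III, where 5 of 45 were above 2000 bp and 1 above 3000 bp. Above 2000 bp were also 7 of 33 on I, 8 of 41 on IV, 11 of 56 on V and 10 of 32 on II. The median width of wide peaks was 1216 bp on X, between 1203 bp on I and 1315.5 bp on V, and II had the highest at 1643.5 bp. The widest of X, from 16929350 to 16931976, was 2627 bp wide with a strength of 144.8.

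The excess of wide peaks on X was found below the strongest 10% of the list. Among the 954 strongest peaks, with a strength from 24.1 upward, 26 of 134 on X were wide (19.4%, interval 13.1 to 27.1) and 168 of 820 on autosomes were (20.5%, interval 17.8 to 23.4). The difference there was -1.08 percentage points (interval -7.57 to 6.87), so no difference was detectable in that class. In the other 90% of peaks 27 of 944 on X were wide (2.86%, interval 1.89 to 4.13), against 39 of 7635 on autosomes (0.51%, interval 0.36 to 0.70). That difference was 2.35 percentage points (interval 1.44 to 3.63). Hence 49.1% of the wide peaks of X and 81.2% of the autosomal ones belonged to the strongest 10%. Earlier results of these data had shown wider peaks on X than on autosomes, so this is a closer description of that pattern and no independent support.

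Over all autosomes wide peaks were more often central than all narrower peaks were, and this rested in part on II. The centre is the central 50% of each span, judged by the middle of the peak. On autosomes 138 of 207 wide peaks (66.7%, interval 59.8 to 73) lay in the centre, against 4674 of 8248 narrower peaks (56.7%, interval 55.6 to 57.7). The difference was 10 percentage points (interval 3.24 to 16.2). This gave 3.35 wide peaks per Mb in autosomal centres and 1.67 per Mb in the outer parts. For every outer peak there were 2 central ones in the wide class and 1.31 in the narrower class. Autosomal peaks above 800 and up to 1000 bp were central in 104 of 173 cases (60.1%), and no difference from them was detectable (6.55 percentage points, interval -3.12 to 16.2).

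Single chromosomes differed in how far this went. On II 26 of 32 wide peaks were central (81.3%, against 57.0% of narrower peaks), a difference of 24.2 percentage points (interval 7.52 to 34.4). The wide share in the centre exceeded the narrower share by 13.2 percentage points on X, 9.14 on IV, 8.99 on III and 8.86 on V, and each of these intervals included 0. Chromosome I showed no such excess, with 54.5% of wide and 55.2% of narrower peaks in the centre (difference -0.68, interval -17.4 to 15.1). X combined a central majority of wide peaks, 32 of 53 (60.4%), with a narrower class that was less often central than outer, at 47.2%. Without II the autosomal shares were 64% for wide and 56.6% for narrower peaks, and the interval of the difference of 7.42 percentage points (-0.02 to 14.3) included 0.

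Shares of wide peaks varied between the outer parts, but on each chromosome the intervals of the first and last 25% overlapped. The first 25% of the span of II held 0 wide peaks of 283, with an exact interval that ends at 1.30% (3 counts of the total would be 1.06%), and the first 367 peaks of II, up to 30.8% of its span, were all narrower. The last 25% of II held 6 of 465 (1.29%). On I the last 25% had 9 of 307 (2.93%), among them the widest region of the list, from 14755569 to 14760573. The sixth widest, from 15064024 to 15067632, was the last peak of I. On V the first 25% had 12 of 389 (3.08%) and the last 25% had 5 of 330 (1.52%). With the span divided into 10 equal bins, the autosomal share of wide peaks was highest in the seventh bin, at 34 of 960 (3.54%, interval 2.46 to 4.91). It was lowest in the second, at 9 of 677 (1.33%, interval 0.61 to 2.51), and these intervals overlapped. The last bin, with 24 of 778 (3.08%), was close to the central bins. The seventh bin was also the highest on X, with 10 of 88 (11.4%, interval 5.59 to 19.9).

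**Figure D3:**
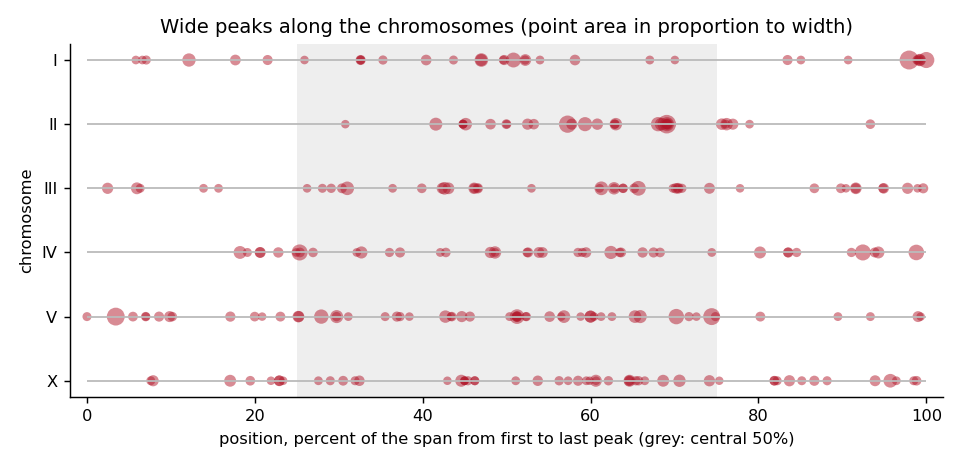
Each point is a wide peak, placed by percent of the span of its chromosome (between its outermost peaks), with area in proportion to width and the central 50% in grey. The points crowd into the centre on II, whose first 30.8% is empty, and reach both ends on III and V.

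Wide peaks had other peaks close by far more often than narrower peaks did. Another peak lay within 1 kb of 181 of the 260 wide peaks (69.6%, interval 63.6 to 75.1), against 3086 of 9273 narrower peaks (33.3%, interval 32.3 to 34.2), with 34.3% over all peaks. The difference was 36.3 percentage points (interval 30.4 to 41.7). Within 500 bp a neighbour was found for 46.9% of wide and 15.5% of narrower peaks. Neighbours within 1 kb on both sides were found for 60 wide peaks (23.1%) and for 555 narrower ones (5.99%). The median gap to the nearest peak, counted between edges, was 522 bp for wide and 1865 bp for narrower peaks. The smallest gap in the list was 200 bp, so closer pieces of signal are not seen as separate peaks. Whether a neighbour this close is a separate site or a piece of the same enriched region was not tested.

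Strength went along with part of this closeness. Among the strongest 10% of peaks, 143 of 194 wide peaks (73.7%) and 347 of 760 narrower peaks (45.7%) had a neighbour within 1 kb. The difference within that class was 28.1 percentage points (interval 20.5 to 34.7). Strength was not equal within it: the median was 61.3 for its wide and 34.3 for its narrower peaks. Peaks above 800 and up to 1000 bp, just outside the rule, had one in 126 of 224 cases (56.3%), and wide minus that class was 13.4 percentage points (interval 4.75 to 21.8). No difference from that class was detectable for neighbours within 500 bp (7.64, interval -1.21 to 16.3) or on both sides within 1 kb (4.33, interval -3.01 to 11.5). These peaks thus stood between the wide class and the whole of the narrower class.

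**Figure D4:**
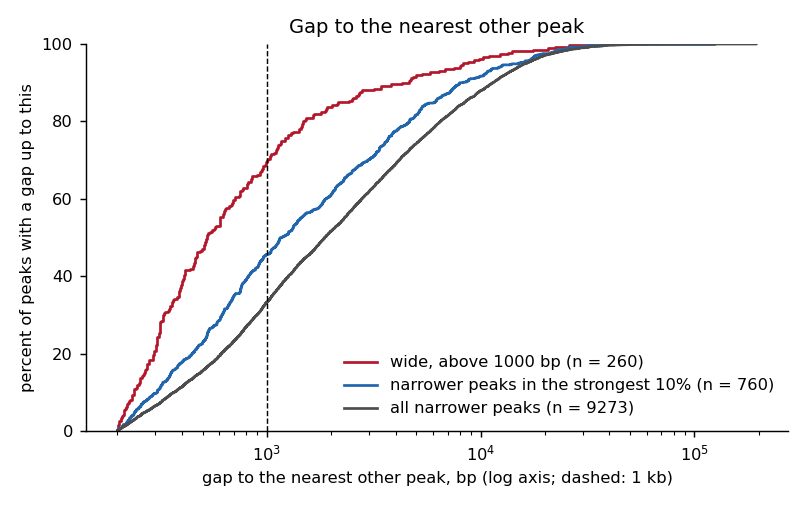
Percent of peaks whose gap to the nearest other peak is at most the value on the x axis (bp, log axis), for wide peaks, narrower peaks in the strongest 10% and all narrower peaks. At 1 kb (dashed) the curves stand at 69.6%, 45.7% and 33.3%.

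The closeness held on each of the 6 chromosomes and was least on X. The share of wide peaks with a neighbour within 1 kb was 86.7% on III, 81.3% on II, 78% on IV, 69.7% on I, 66.1% on V and 45.3% on X. The shares of narrower peaks were 37.4%, 35.4%, 33.6%, 32.5%, 33.6% and 23.1% in the same chromosomes. Of the wide peaks 24 of 53 on X had such a neighbour, against 157 of 207 on autosomes, a difference of -30.6 percentage points (interval -44.3 to -15.9). On X the nearest peak of any width lay farther away for both classes. The median gap to it was 1163 bp for wide and 3290 bp for narrower peaks, against 458 and 1761.5 bp on autosomes.

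The surroundings of wide peaks were rich in narrower peaks up to about 10 kb. Within 10 kb of their edges wide peaks had a mean of 4.15 narrower peaks (SD 2.38, interval of the mean 3.91 to 4.41), against 2.89 (SD 2.36, interval 2.85 to 2.92) around narrower peaks. The mean was higher around wide peaks on all 6 chromosomes, from 3.04 around wide and 1.88 around narrower peaks on X to 5.44 and 3.41 on II. At least 5 narrower peaks lay within 10 kb of 97 wide peaks (37.3%) and of 20.2% of narrower peaks. None lay there for 10 wide peaks (3.85%) and for 12.4% of narrower peaks. Narrower peaks of the strongest 10% had a mean of 3.35 and peaks above 800 and up to 1000 bp a mean of 3.74, both between these classes.

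Resolved by distance, the excess was largest next to the edges, lower and level from 500 bp to 2 kb, and then shrank. At 200 to 500 bp narrower peaks lay at 731 per Mb of flank around wide peaks and 259.9 around narrower ones, a ratio of 2.81. The ratio was 1.61 at 500 bp to 1 kb, 1.61 at 1 to 2 kb, 1.37 at 2 to 5 kb and 1.23 at 5 to 10 kb. It was 1.05 at 10 to 20 kb (116.7 and 110.7 per Mb around wide and narrower peaks, interval of the wide value 107.6 to 126.4). At 20 to 50 kb it was 0.97 and at 50 to 100 kb it was 1.01. At distances over 10 kb no difference in the number of narrower peaks was detectable. Among the distances measured, the excess was thus found up to 10 kb. Peaks above 800 and up to 1000 bp had a similar profile, with ratios of 2.35, 1.38, 1.35, 1.28 and 1.13 in the same order up to 10 kb. At 200 to 500 bp they had 610 narrower peaks per Mb (interval 485 to 757), against an interval of 603 to 878 for wide peaks. The intervals of both classes overlapped at each of these distances.

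**Figure D5:**
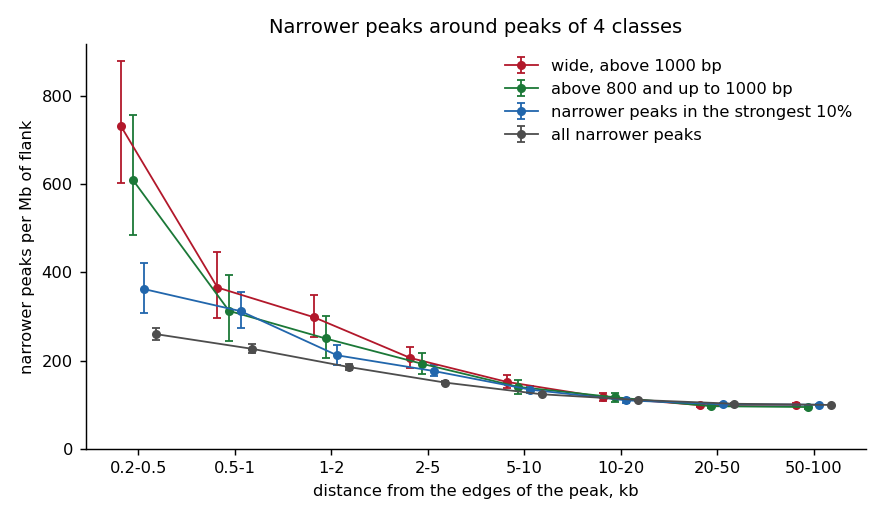
Narrower peaks per Mb of flank, by distance from the edges of the peak in kb, around wide peaks, peaks above 800 and up to 1000 bp, narrower peaks in the strongest 10% and all narrower peaks. Bars are 95% exact Poisson intervals for counting error; the classes range from 731 for wide peaks to 259.9 for all narrower peaks at the shortest distance and come together from 10 kb.

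Most wide peaks with another peak within 1 kb were the strongest member of their group. When peaks within 1 kb of the next were joined, 3267 peaks formed 1326 groups of 2 or more, each with 1 strongest member. A wide peak was present in 153 of these groups. Of the 181 wide peaks in groups, 126 were the strongest member, against 1326 of all 3267 grouped peaks. Of the 134 groups with exactly 1 wide peak, that peak was the strongest member in 108 (80.6%). Width and strength come from the same enrichment, so these counts are a description beside the link given above and not a separate result. Counted over peaks, 61 of the 632 members of groups of 4 or more were wide (9.65%, interval 7.46 to 12.2). Of the 2635 members of groups of 2 or 3 peaks 120 were wide (4.55%, interval 3.79 to 5.42), and of the 6266 peaks that stood alone 79 were (1.26%, interval 1.00 to 1.57). The 202 narrower peaks within 1 kb of a wide peak had a median strength of 8.52 and a median width of 425 bp. Those close only to other narrower peaks had medians of 5.26 and 296 bp.

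The most crowded wide peaks lay on II, V and IV. The peak on II from 6838215 to 6839325 had 13 narrower peaks within 10 kb and 24 within 20 kb, at a strength of only 30.2. On V, the peaks from 6224104 to 6225336 (strength 122.7) and from 6226491 to 6228863 (strength 133.6) had 11 narrower peaks each within 10 kb and stand in a group of 12 peaks. The peak on IV from 4027245 to 4028755 had 10, and no other wide peak within 373365 bp. A second one on II, from 6842402 to 6843499, also had 10.

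A few wide peaks stood alone. Only 4 (1.54%, interval 0.42 to 3.89) were more than 20 kb from any other peak, against 270 narrower peaks (2.91%), and the interval of this difference (-2.38 to 1.00 percentage points) included 0. Of these 4, the peak on X from 11605378 to 11606575 was farthest, at 37154 bp. The others on X ran from 9999214 to 10000430 (25765 bp) and from 5728875 to 5730007 (20715 bp). The one that was not on X was the last peak of I, 22375 bp from its only neighbour. That peak was 3609 bp wide with a strength of 130, whereas those 3 on X were 1133 to 1217 bp wide.

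Most wide peaks had no other wide peak within 20 kb, but they had one more often than narrower peaks did. Another wide peak lay within 20 kb of 83 wide peaks (31.9%, interval 26.3 to 38), against 1302 narrower peaks (14%, interval 13.3 to 14.8) and 14.5% of all peaks. The difference was 17.9 percentage points (interval 12.5 to 23.8). In the strongest 10% the shares were 32% for wide and 21.3% for narrower peaks. That difference was 10.6 percentage points (interval 3.77 to 18), and median strength was higher in the wide peaks of that class. Peaks above 800 and up to 1000 bp came near the wide ones, at 29.9% (difference 2.01, interval -6.26 to 10.2). The median gap to the nearest other wide peak was 75701.5 bp for wide and 147682 bp for narrower peaks. Along the chromosomes, the next peak was wide after 24 of 259 wide peaks (9.27%) and after 236 of 9268 narrower ones (2.55%). By chromosome, the share of wide peaks with another within 20 kb was 50% on II, 36.4% on I, 31.1% on III, 30.4% on V, 26.4% on X and 24.4% on IV. The shares of narrower peaks with a wide peak within 20 kb were 11.2%, 11.5%, 15.3%, 16.0%, 17.7% and 13.7% in the same order.

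Gaps between consecutive wide peaks spanned a wide range, from 238 bp to over 2 Mb. Of the 254 gaps 22 were at most 1 kb and 26 ran from 1 to 20 kb, while the median was 216930 bp. Another 21 were over 1 Mb. The longest, 2195609 bp, lay on II between 12053801 and 14249411, and the next, 2020582 bp, on I between 10554638 and 12575221. On X the longest was 1839469 bp, between 5821459 and 7660929. The 3 closest pairs were 238 bp apart on I (from 4914175 to 4915291 and from 4915530 to 4916957), 254 bp on I (from 7079136 to 7081152 and from 7081407 to 7083978) and 255 bp on X (from 11471414 to 11472640 and from 11472896 to 11474896). The partners of a pair could differ widely in strength: in the second pair they had 25.2 and 177.7.

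At a distance of 20 kb, 83 wide peaks formed 35 groups, 27 of 2 wide peaks, 6 of 3, 1 of 5 and 1 of 6. The largest lay on II from 10542598 to 10560002, and its 6 wide peaks covered 77.8% of 17405 bp, with 1 narrower peak between them. From its start the widths were 1396, 4820, 2776, 1444, 1301 and 1807 bp, and the strengths 21.3, 172, 129.8, 78, 47.9 and 173.9. This stretch thus held the second widest region of the list and peaks ranked 12, 13 and 37 by place in the list. The group of 5 lay on V from 10713506 to 10723774 and covered 82.3% of 10269 bp, with no narrower peak between its members. From its start the widths were 1416, 1024, 1349, 3009 and 1651 bp, and the strengths 6.05, 108.6, 83.1, 127.1 and 69.4. Its first member was thus far weaker than the next, 325 bp away. The tightest group of 3, on I from 4914175 to 4918463, covered 85.1% of 4289 bp, and its strengths were 30.9, 10.2 and 28.

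The 10 widest regions were mixed in their surroundings and strengths. Chromosomes IV and V had 3 each, I and II had 2 each, and III and X had none. Those on IV ran from 4468238 to 4471831 (3594 bp, strength 153.1), from 16167515 to 16171103 (3589 bp, 96.7) and from 17278234 to 17281614 (3381 bp, 62.2). The last of the 10, on V from 14685602 to 14688920, was 3319 bp wide with a strength of 52.9 and a place of 272 in the list. Within 10 kb these 10 regions had from 0 to 6 narrower peaks. The 0 was that of the last peak of I, which has neighbouring peaks on 1 side only, and the others had from 2 to 6. Of the 10, 8 had a neighbour within 1 kb, and 2 had another wide peak within 20 kb, on II from 10544877 (469 bp away) and on IV from 4468238 (5125 bp away).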

How the data were processed

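The authors deposited 1 combined peak list, called with PeakSeq according to its source column; coordinates are those of WS180, per the file headers. The q-value of each peak (all below 0.01) is the authors' p-value adjusted for many peaks, ChIP against input, as deposited. The aligner, read filters, caller version and way of combining replicates were not stated in these sources, and depth is unknown. No genome or annotation of this build was used, so neither genes nor sequences are given.

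Wide peaks were those above 1000 bp. Gaps were bases between edges, and neighbours were counted from the edges on both sides. Shares have exact (Clopper-Pearson) binomial intervals, densities and mean numbers exact Poisson intervals, and differences Newcombe intervals. The functions were tested on simulated lists. The members and comparisons were chosen with earlier results of these data known. Regions named were the widest, weakest, most crowded, most isolated and closest ones, and those next to the threshold. Alternatives changed the width threshold, strength, merging, distances and chromosomes. Software was statsmodels 0.14.6, scipy 1.17.1, pandas 2.3.3, numpy 2.4.6 and matplotlib 3.10.9 under Python 3.11.15.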

Additional observations from a re-analysis of the deposited data

How the results depend on the processing

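Wide peaks had a higher value than narrower peaks in 51 of 52 alternatives, not always beyond counting error. All of them recut the same list and overlap one another, so the count is no measure of independent support. The exception, chosen after seeing the data like those without II or V, limited both classes to the strongest 10%: the share on X was 13.4% for wide and 14.2% for narrower peaks; the cause was not tested. With wide peaks above 800 bp there were 484. Of these 63.4% had a peak within 1 kb (32.7% of the others) and 45.9% a wide one within 20 kb (22.3% of the others). Their mean number of narrower peaks within 10 kb was 3.74 (2.78 for the others). Above 1500 bp there were 96, with 15.6% on X (11.3% of the others, interval of the difference -1.60 to 12.9, which includes 0). Of the 96, 17.7% had a wide peak within 20 kb (6.57% of the others), and their mean was 4.66 (2.98 for the others). After merging within 500 bp there were 543, with 14.9% on X (11.6% of the others). This difference of 3.37 percentage points was smaller than the 9.33 before merging. A peak within 1 kb was found for 43.3% (21.3% of the others) and a wide one within 20 kb for 39.8% (24.3%). The mean was 2.86 (2.24 for the others), and merging itself removes close neighbours. Without X, 75.8% of wide peaks had a peak within 1 kb (34.5% of narrower peaks) and the mean was 4.43 (3.01 for narrower peaks). Without V, the share on X was 26% for wide and 13.7% for narrower peaks, out of fewer peaks in both classes. The central 40% of the span held 55.1% of autosomal wide and 46.3% of autosomal narrower peaks. Neighbours within 500 bp and 2 kb were found for 46.9% and 83.8% of wide peaks, against 15.5% and 51.7% of narrower peaks. Means within 5 and 20 kb were 2.63 and 6.48 for wide peaks, against 1.65 and 5.10 for narrower peaks. No paired analysis was possible because the list holds no value per library, nor could a replicate be left out. Depth is unknown, so sites below the threshold cannot be counted.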
